A study of Mus musculus with 8 samples.

Results

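In sections of mouse colon, 298 haemoglobin-led cell barcodes carried RNA of Gpx1, Cd24a, Fam117a, Apol11b or Aldh1a1. A barcode stands for the cell material of 1 library in 1 droplet, and a UMI (unique molecular identifier) is 1 counted RNA molecule. A barcode was taken when it had at least 100 UMIs, when Hba-a1, Hba-a2, Hbb-bs and Hbb-bt together made up at least 50% of them, and when the 5 markers summed to at least 2 UMIs. These marker-positive barcodes were 298 of 989 haemoglobin-led barcodes (30.1%), of 2632 barcodes with at least 100 UMIs (11.3%) and of 8588 deposited barcodes. The comparison set is the other 691 haemoglobin-led barcodes, which had 1 or 0 marker UMIs.

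The 8 libraries came from 8 C57BL/6 mice, 1 library per mouse. In each of the 2 diet groups 4 mice were fed for 3 weeks, on corn oil with cellulose or on fish oil with pectin, and the labels give no age. Fixed RNA was read with gene-specific probe pairs in 2 paraffin sections of 50 µm per colon. The series title names colonocytes, which these barcodes are not, and the question put to them here is which RNA they hold and whether it differed between diets.

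Reticulocytes are red cells that have lost their nucleus and still carry RNA. Globin RNA makes up most of that RNA, and haem synthesis by mitochondria, uptake and storage of iron, defence against peroxide and removal of organelles are the processes their remaining transcripts serve. Gpx1 encodes a glutathione peroxidase that reduces hydrogen peroxide, Cd24a a surface glycoprotein, and Aldh1a1 a retinaldehyde dehydrogenase. Apol11b belongs to the apolipoprotein L family. In GRCm38, Gpx1 lies on chromosome 9 (108338903 to 108340343, plus strand), Cd24a on chromosome 10 (43578284 to 43584265, plus), Fam117a on chromosome 11 (95337018 to 95381872, plus), Apol11b on chromosome 15 (77633946 to 77643286, minus) and Aldh1a1 on chromosome 19 (20492715 to 20643465, plus). Transcription in the red cell lineage depends on GATA1, which binds GATA motifs, and on KLF1, which binds CACCC motifs.

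Promoters are shown for 2 genes that a later result sets apart: Trim10, a RING finger protein needed for terminal red cell differentiation, had the highest ratio among genes outside the rule with at least 20 UMIs, and Apol11b belongs to the second of the 2 marker groups described below. Each line gives the 250 bases before the RefSeq start, 5′ to 3′ on the strand of the gene, with matches to a GATA motif in capitals. The Trim10 stretch is chr17:36869324-36869573 on the plus strand and the Apol11b stretch chr15:77643287-77643536 on the minus strand, both in GRCm38.p6.
Trim10: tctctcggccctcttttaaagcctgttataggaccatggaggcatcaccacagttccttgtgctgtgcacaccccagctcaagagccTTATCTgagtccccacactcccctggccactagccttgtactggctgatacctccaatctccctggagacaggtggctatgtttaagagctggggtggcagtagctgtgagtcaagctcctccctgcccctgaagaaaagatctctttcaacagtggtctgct
Apol11b: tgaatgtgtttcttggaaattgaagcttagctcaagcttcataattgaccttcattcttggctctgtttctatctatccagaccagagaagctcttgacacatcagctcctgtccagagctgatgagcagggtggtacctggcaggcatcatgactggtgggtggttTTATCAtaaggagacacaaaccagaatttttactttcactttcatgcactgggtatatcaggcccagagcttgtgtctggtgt
The match began 163 bases before the start in Trim10 and 83 bases before it in Apol11b. A GATA motif was counted as AGATAA or TGATAA on either strand, and a CACCC motif as CCACCC or CCACACCC on either strand. Of the 20 leading genes listed by their ratio below, 18 matched 27 RefSeq promoters. GATA motifs were in 6 of these 27 (22.2%) against 16.6% of all 32851 promoters, and CACCC motifs in 12 of 27 (44.4%) against 30.1%. The leading genes include the rule markers, which rank high by construction. Among promoters with a GATA motif, those of Apol11b, Fam117a and Aldh1a1 belong to rule markers, and the others to Trim10, Creg1 and Prxl2a. The share was not read for genes outside the rule alone, so no GATA excess is shown for them. The window of Gpx1 held neither motif. Promoters of 1 gene are not independent, so these shares were not tested. A match describes the letters and is not a measured binding site.

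Marker-positive barcodes were found in 7 of 8 mice. Corn oil/cellulose mice 1, 2 and 4 held 10 of 37, 34 of 163 and 79 of 201 haemoglobin-led barcodes, and mouse 3 had none of either kind among its 106 barcodes. Fish oil/pectin mice 1 to 4 held 12 of 61, 62 of 199, 90 of 296 and 11 of 32. Corn oil/cellulose mouse 4 and fish oil/pectin mice 2 and 3 thus gave most of them, and the other 4 mice gave between 10 and 34 each. Libraries held 34758 to 245476 UMIs. The labels name no pools of libraries, and 2 were inferred here from shared droplet barcodes: pool 1 has 3 mice of the corn oil/cellulose group (1, 2 and 3) plus number 1 of the fish oil/pectin group, and pool 2 has the remaining 4. In all, 189 droplet barcodes were shared within these inferred pools and 24 between them, and 14 marker-positive barcodes lay in a droplet that another library also held. No doublet caller was run.

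**Figure D1:**
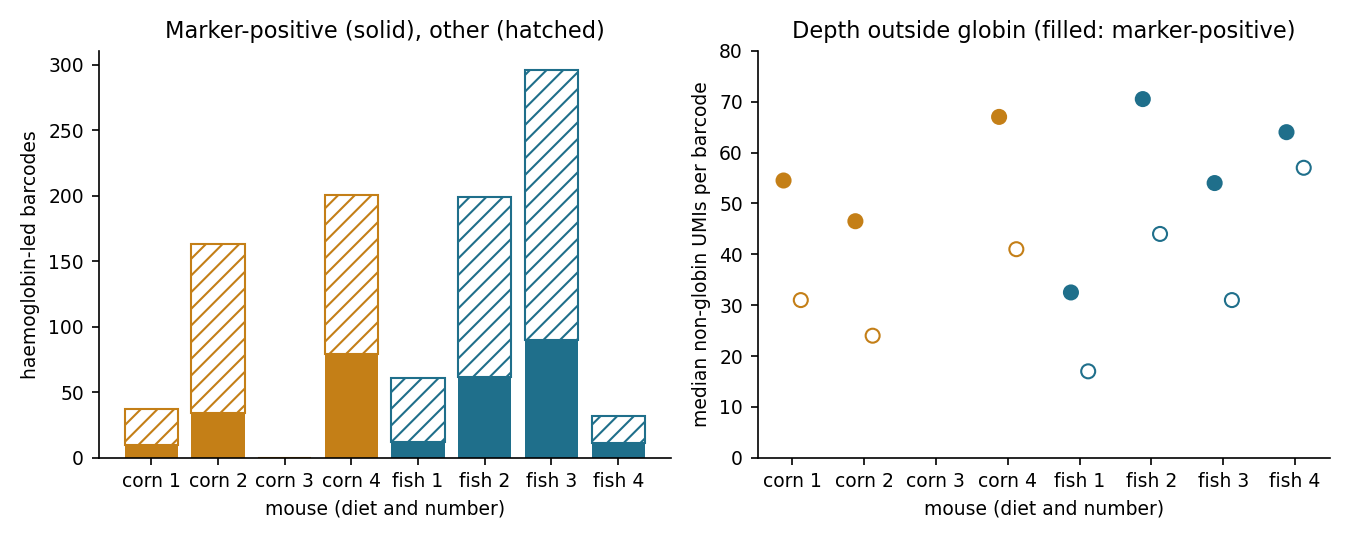
Left, haemoglobin-led barcodes per mouse (linear axis from 0), with marker-positive barcodes solid and other haemoglobin-led barcodes hatched. Right, the median non-globin UMIs per barcode in each mouse, filled for marker-positive barcodes and open for the others. Corn oil/cellulose is ochre and fish oil/pectin blue. The filled point lies above the open one in each of the 7 mice.

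Marker-positive barcodes were deeper than the rest. They had a median of 389 UMIs, 57 non-globin UMIs (12 to 202) and 37 genes, against 261 UMIs and 33 non-globin UMIs in the other haemoglobin-led barcodes. Globin took 84.6% of their UMIs against 86.4%. All levels below are therefore UMIs per 10000 non-globin UMIs, over 18443 non-globin UMIs in marker-positive and 25953 in other haemoglobin-led barcodes. Because the rule made this contrast, it is described with no test.

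The values that chose the barcodes were as follows. Gpx1 had 528 UMIs in them, Cd24a 227, Apol11b 154, Fam117a 108 and Aldh1a1 106. At least 1 Gpx1 UMI was present in 61.4% of marker-positive barcodes, in 7.96% of other haemoglobin-led barcodes and in 2.74% of the 1643 barcodes not led by haemoglobin, whose median depth was 237 UMIs. Cd24a was present in 39.9%, 3.76% and 1.70%. These barcodes held 80.7% of all Gpx1 UMIs of the series and 70.5% of all Cd24a UMIs. At the threshold, 101 barcodes had exactly 2 marker UMIs and 177 haemoglobin-led barcodes just outside it had 1, while 514 had 0. The remaining marker-positive barcodes had 3 or 4 (124) or at least 5 (73), with a highest count of 22. None had a haemoglobin share under 60%, and 4 had fewer than 120 UMIs.

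Per mouse, the Gpx1 level in marker-positive barcodes was 61.6, 339 and 303 in corn oil/cellulose mice 1, 2 and 4, and 342, 242, 274 and 488 in mice 1 to 4 on fish oil/pectin. Corn oil/cellulose mouse 1 was the low one, on 3 Gpx1 UMIs. Its Cd24a level, 287, was the highest of the 7, with 87.6 and 101 in mice 2 and 4 and 171, 109, 157 and 79.2 in the fish oil/pectin mice. The diets overlapped for both genes.

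Of the 298 barcodes, 123 were chosen by UMIs of 1 marker alone (68 of them by Gpx1), 129 held 2 different markers, 37 held 3, 9 held 4 and 0 held all 5. With a median of 3 marker UMIs per barcode, depth and the threshold limit how many different markers can be read. When haemoglobin-led barcodes were chosen by 4 markers and the fifth was read in them, its level over the rest was 1.13-fold for Gpx1 (higher in 3 of 7 mice), 1.36-fold for Cd24a (6 of 7), 1.15-fold for Apol11b (2 of 7), 1.08-fold for Fam117a (3 of 7) and 0.920-fold for Aldh1a1 (2 of 7). The chosen barcodes were deeper here too, with medians of 57 to 59 non-globin UMIs against 34 to 36.

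By pairs, the markers were read as 2 groups. The Gpx1 level was 1.87-fold higher in haemoglobin-led barcodes with a Cd24a UMI than in those without, in 7 of 7 mice, and the Cd24a level was 1.71-fold higher in those with a Gpx1 UMI, in 5 of 7. Apol11b was 2.92-fold higher with Aldh1a1 (5 of 7 mice) and 2.05-fold higher with Fam117a (6 of 7). Fam117a was 1.78-fold higher with Apol11b, in 7 of 7. The pair of Fam117a and Aldh1a1 was less uniform. Fam117a was 1.38-fold higher with Aldh1a1 and Aldh1a1 1.58-fold higher with Fam117a, each in 4 of 7 mice. Across the groups the ratios lay between 0.55 and 1.18, and Apol11b was at 0.547-fold with Cd24a, lower in 7 of 7 mice. Cd24a was at 1.09-fold with Fam117a, higher in 5 of 7. This grouping was read from the values and has no test.

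**Figure D2:**
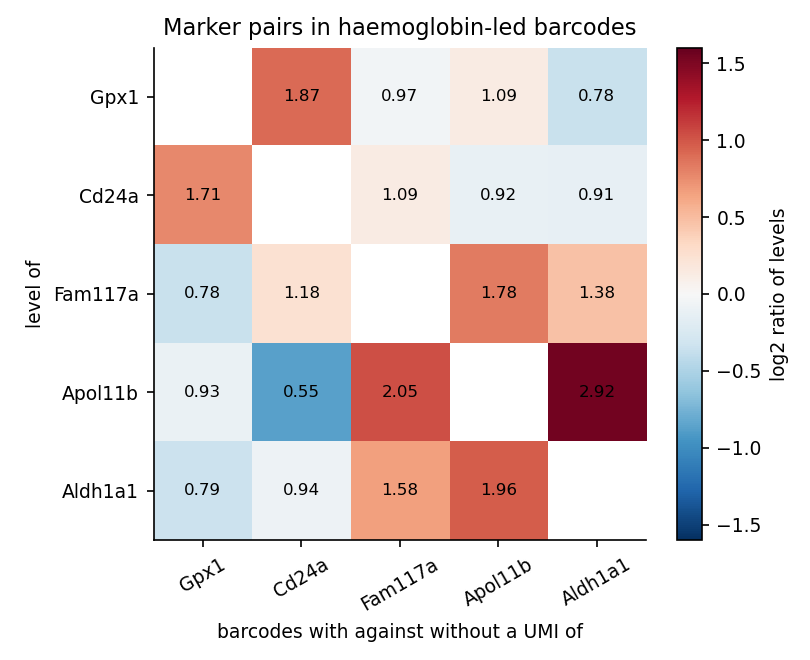
Ratio of the level of 1 marker (row) in haemoglobin-led barcodes with against without a UMI of another (column), pooled over 7 mice; colour gives the log2 ratio and the number the ratio. Gpx1 with Cd24a, and Fam117a, Apol11b and Aldh1a1 with each other, are above 1, and Apol11b with Cd24a is at 0.55.

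By these groups, 133 marker-positive barcodes (44.6%) had Gpx1 or Cd24a UMIs and none of the other 3 markers, 63 (21.1%) had Fam117a, Apol11b or Aldh1a1 UMIs and none of Gpx1 and Cd24a, and 102 (34.2%) had markers of both groups. Car2, the carbonic anhydrase that speeds conversion of carbon dioxide in red cells, had 45 UMIs in the Gpx1/Cd24a barcodes and 2 in the 63, or levels of 53.0 and 6.45, beside 12.1 in barcodes with 0 marker UMIs. It was higher in the first in 6 of 7 mice. Cat, or catalase, which breaks down hydrogen peroxide, stood at 97.7 and 45.2 (7 of 7 mice), the proteasome activator Psme3 at 88.3 and 32.3 (7 of 7) and the poly(A)-binding protein gene Pabpc1 at 81.2 and 25.8 (6 of 7). The second group held 1 barcode with 28 non-globin UMIs in corn oil/cellulose mouse 1 and 102 non-globin UMIs in fish oil/pectin mouse 1, where few genes can be read, so the tallies over mice carry little. Ypel3 had 20 UMIs in the first and 0 in the second. In the other direction, Alas2, the rate-limiting enzyme of red cell haem synthesis, was at 745 and 1219, higher in the first in 1 of 7 mice, and the ferritin autophagy receptor Ncoa4 at 83.6 and 155 (3 of 7). Tpt1 was at 9.42 and 48.4 (0 of 7). The 63 barcodes rest on 3100 non-globin UMIs, and these genes were picked from their values.

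Outside the rule, 96 genes had at least 20 UMIs in marker-positive barcodes, and 13 of them (13.5% of the genes compared) were at least 2-fold higher per non-globin UMI than in other haemoglobin-led barcodes, while 2 (2.08%) were at least 2-fold lower. The median ratio was 1.20, with 72 genes above 1 and 24 below. The minimum of 20 UMIs was set in marker-positive barcodes, which favours genes that are high there, so these counts and those per list describe the genes that passed it. Leaving the marker UMIs out of the denominators would scale every ratio by 1.058. Trim10 led at 14.6 against 1.93, a ratio of 7.60 on 27 UMIs, and was higher in 4 of 7 mice; corn oil/cellulose mouse 1 and fish oil/pectin mice 1 and 4 had 0 UMIs of it in marker-positive barcodes. Car2 followed at 44.5 against 12.3, a ratio of 3.61 on 82 UMIs. Its level was 20.5, 46.7 and 54.9 in corn oil/cellulose mice 1, 2 and 4 and 24.4, 33.2, 36.4 and 106 in mice 1 to 4 on fish oil/pectin. Each of these was above the same mouse's other haemoglobin-led barcodes, which ranged from 0 to 21.2.

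**Figure D3:**
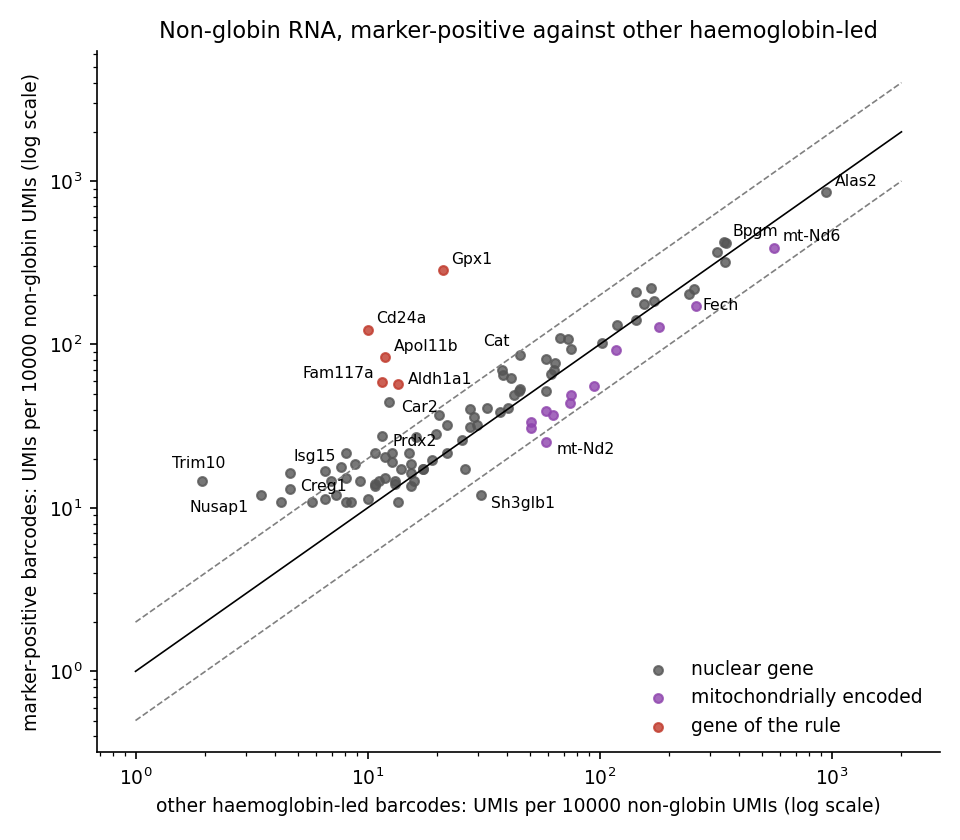
Level of each gene with at least 20 UMIs in marker-positive barcodes, in UMIs per 10000 non-globin UMIs, in marker-positive (vertical) and other haemoglobin-led barcodes (horizontal), both on log axes. The solid line marks equal levels and the dashed lines a 2-fold difference. The 5 genes of the rule (red) stand above by construction, and the 12 mitochondrially encoded genes (purple) lie below the solid line.

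Isg15, a ubiquitin-like modifier, had a ratio of 3.52 on 30 UMIs (higher in 6 of 7 mice), of which 10 UMIs came from fish oil/pectin mouse 4; without that mouse the ratio was 2.30. Irf7, a transcription factor, had a ratio of 2.56 on 20 UMIs (6 of 7), and of 1.82 without barcodes that held epithelial marker UMIs. Other interferon-induced genes did not reach 2-fold, with Isg20 at 1.47, Rsad2 at 1.44 and Ube2l6 at 0.834. Nusap1, a spindle-associated protein, was at 3.44 (4 of 7) and Tfdp2, the partner of E2F factors, at 2.68 (4 of 7). Creg1 was at 2.81 (5 of 7) and at 5.39 without corn oil/cellulose mouse 4. Hipk1 was at 2.11 (4 of 7), but at 1.21 without fish oil/pectin mouse 2 and 3.27 without corn oil/cellulose mouse 2. With both sets limited to barcodes of 30 to 120 non-globin UMIs (266 and 386 barcodes, medians 58.5 and 45), 10 of 88 genes were at least 2-fold higher. With both limited to barcodes without epithelial marker UMIs, 8 of 74 were, and 9 of 77 were without corn oil/cellulose mouse 4. Fewer genes reached 20 UMIs under each of these limits.

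Measured genes of peroxide and glutathione defence included several that were higher in marker-positive barcodes. Of 25 list genes measured, the 4 outside the rule with at least 20 UMIs each had a ratio above 1, with a median of 1.89 beside 1.20 over all genes compared. Cat was at 86.8 against 45.5, a ratio of 1.91, and 51.8% of the Cat UMIs of the series lay in these barcodes. Its level was 144, 17.5 and 65.5 in corn oil/cellulose mice 1, 2 and 4 and 97.8, 119, 109 and 26.4 in the fish oil/pectin mice, below the other haemoglobin-led barcodes in corn oil/cellulose mouse 2 and fish oil/pectin mouse 4. Prdx2, the abundant red cell peroxiredoxin, was at 27.7 against 11.6 (6 of 7 mice). Gclm, the regulatory subunit of the enzyme that starts glutathione synthesis, was at 15.2 against 8.09. Blvrb, a biliverdin reductase, had a ratio of 1.88, and of 0.906 without corn oil/cellulose mouse 4.

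The 12 haem synthesis genes together stood at 1078 against 1208. Alas2 had 1581 UMIs, the most of any gene outside globin, with 857 against 947, and Fech, which inserts iron into the haem ring, had 217 against 255. Per mouse the Alas2 level was 821, 1028 and 747 in corn oil/cellulose mice 1, 2 and 4 and ran from 750 to 1051 in fish oil/pectin mice, and it was above the other haemoglobin-led barcodes in 3 of 7 mice. Urod, another enzyme of the pathway, had 2 UMIs. For iron supply, the 5 of 14 measured genes with at least 20 UMIs each had a ratio above 1 (median 1.34), beside 72 of 96 and 1.20 over all genes compared. The mitochondrial iron importer Slc25a37 was at 177 against 156, Ncoa4 at 94.3 against 75.1, the ferritin heavy chain Fth1 at 21.7 against 10.8 and the iron-sulfur assembly factor Glrx5 at 16.8 against 6.55 (7 of 7 mice). Fth1 had a ratio of 1.39 without barcodes that held epithelial marker UMIs.

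Tfrc, the transferrin receptor and a standard reticulocyte surface marker, had 0 UMIs in marker-positive barcodes and 57 in the series, which allows up to 1.63 per 10000 non-globin UMIs. The erythroid factors Gata1 and Klf1 had 0 UMIs, with 1 and 2 in the series, and embryonic globins had 0. Over the 11 measured genes of the proliferation list, 1 UMI was read, of Cenpf. Other cell cycle genes lie outside that list. Among them Cdc25b had 34 UMIs, Pttg1 25, and Ube2c and the spindle-associated Nusap1 22 each. Outside the rule, Alas2, Epb41 and Slc4a1 are genes of the red cell lineage. Tfrc had 38 of 619734 non-globin UMIs in barcodes not led by haemoglobin, a level below that limit, and how well its probes read reticulocytes in fixed tissue is not known here, so its 0 says little. The name reticulocyte is thus not settled by these markers, and the barcodes are called by their rule. Among membrane and skeleton genes, the 3 of 23 with at least 20 UMIs had a median ratio of 1.28, with Epb41 (protein 4.1) at 184 against 171 and the anion exchanger Slc4a1 at 19.0 against 12.7. Of the 16 erythroid transcription factors listed, E2f2 led with 21 UMIs and 8 had 0.

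For clearance of proteins and organelles, 8 of the 10 genes with at least 20 UMIs, of 24 measured, had a ratio above 1, with a median of 1.45, beside 72 of 96 genes and 1.20 over all genes compared. Ube2o, the ubiquitin enzyme that removes ribosomes from reticulocytes, was at 110 against 67.8 and Mkrn1 at 81.9 against 59.0. Map1lc3b, an autophagosome protein, was at 32.0 against 22.0. Bnip3l, the receptor for removal of mitochondria, was lower at 17.4 against 26.2, and Ube2l6 was at 203 against 243. Sh3glb1 (11.9 against 30.8) and mt-Nd2 (25.5 against 59.0) were the 2 genes at least 2-fold lower. Bpgm, which makes the regulator of haemoglobin oxygen affinity, supplied 782 of 785 UMIs of the glycolysis list, at 424 against 344. The survival factor Bcl2l1 was at 40.1 against 27.7. Genes of the lipid peroxidation list had 4 UMIs in all.

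Mitochondrially encoded RNA was lower in marker-positive barcodes, at 11.1% of non-globin UMIs against 16.7%. All 12 of its genes with at least 20 UMIs, of 13 measured, had a ratio below 1. In corn oil/cellulose mice 1, 2 and 4 the share was 7.80%, 4.91% and 10.2% against 16.3%, 7.85% and 13.2%. In fish oil/pectin mice 1 to 4 it was 6.85%, 15.5%, 11.9% and 5.80% against 11.3%, 24.1%, 20.04% and 8.78%. The difference was −5.52 ± 2.76 percentage points (SD, n = 7 mice) and negative in 7 of 7. It was −4.30 over barcodes of 30 to 120 non-globin UMIs, negative in 6 of 7.

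The 2 adult beta-globin genes were split differently. Hbb-bs had 52991 UMIs in marker-positive barcodes (52.3% of globin UMIs), Hba-a2 30678 (30.3%), Hbb-bt 17641 (17.4%) and Hba-a1 58 (0.0572%), and the alpha-globin genes are near-identical copies whose split is uncertain. How well the probes tell Hbb-bs and Hbb-bt apart is not known here either, and the beta-globin shares carry that limit. Hbb-bt made up 25.0% of beta-globin UMIs in marker-positive and 20.1% in other haemoglobin-led barcodes. It was 26.0%, 25.3% and 22.9% in corn oil/cellulose mice 1, 2 and 4 against 19.4%, 19.4% and 19.3%. In fish oil/pectin mice 1 to 4 it was 22.8%, 27.6%, 25.5% and 22.8% against 20.3%, 21.7%, 20.01% and 21.1%. The difference was 4.52 ± 1.91 percentage points (SD, n = 7 mice), positive in 7 of 7. Depth moved with it: limited to 30 to 120 non-globin UMIs, the shares were 25.2% and 22.2% and the mean difference 2.01 ± 3.79 points, positive in 6 of 7 mice, with fish oil/pectin mouse 1 at −5.46 on 9 and 8 barcodes. Its part in the result was not tested. Within the marker-positive barcodes Hbb-bt made up 25.2% with Gpx1 or Cd24a alone, 20.9% with the other 3 markers alone and 26.7% with both, beside 18.9% in barcodes with 0 marker UMIs.

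**Figure D4:**
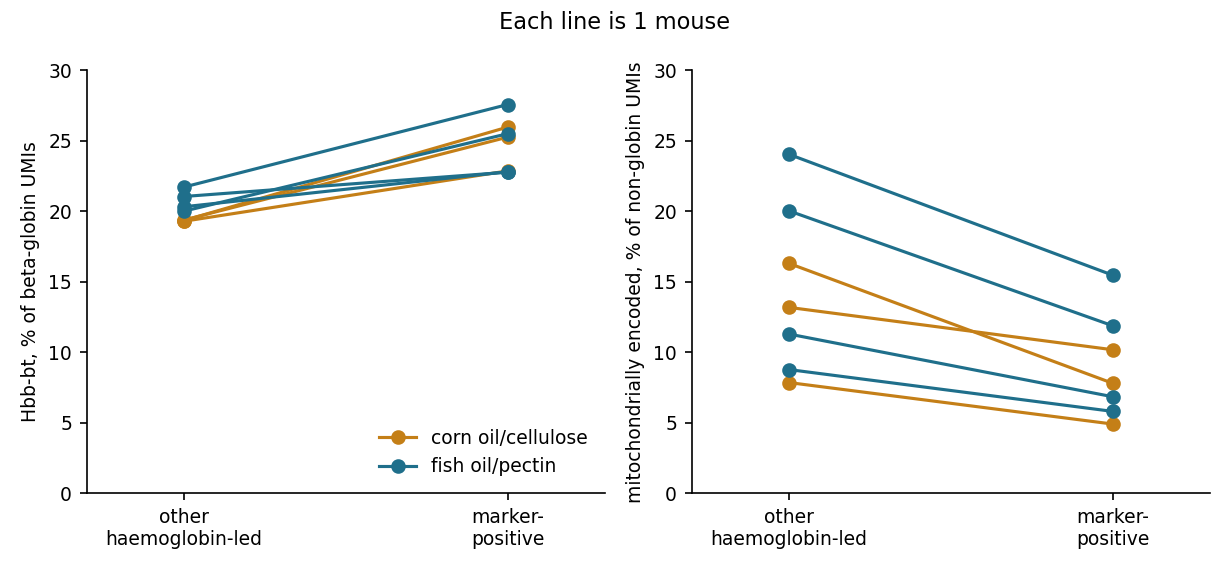
Left, Hbb-bt as a percentage of beta-globin UMIs, and right, mitochondrially encoded RNA as a percentage of non-globin UMIs, in other haemoglobin-led and marker-positive barcodes; each line is 1 of 7 mice, ochre for corn oil/cellulose and blue for fish oil/pectin. Lines go up in 7 of 7 mice on the left and down in 7 of 7 on the right.

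Several of these values were graded with marker UMIs. From 0 through 1, 2, and 3 to 4 to at least 5 marker UMIs, the mitochondrially encoded share was 17.8%, 14.5%, 13.7%, 10.5% and 9.21%. The Car2 level was 12.1, 12.8, 31.5, 42.6 and 59.7, and the Cat level 41.5, 53.6, 74.1, 91.8 and 92.3. Trim10 was at 0.576 and 4.66 below the threshold and between 13.3 and 16.3 above it. The median non-globin UMIs moved along with them, from 30 through 43, 49 and 57.5 to 70.

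**Figure D5:**
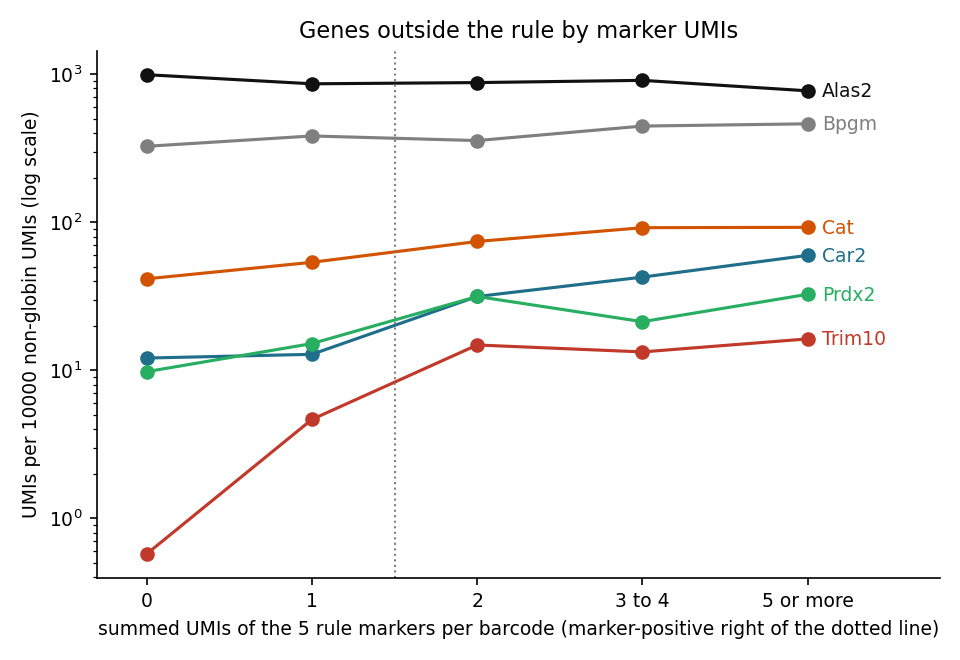
Levels of 6 genes outside the rule (log axis) by the summed UMIs of the 5 markers per haemoglobin-led barcode, pooled over mice. The dotted line marks the threshold of the rule. Car2, Cat, Prdx2 and Trim10 are higher right of it than left of it, and Alas2 is highest at 0 marker UMIs.

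Markers of other cell types were read beside these values. Epithelial markers stood at 84.6 per 10000 non-globin UMIs in marker-positive barcodes, 120 in other haemoglobin-led and 336 in the remaining barcodes, with Muc2 (32 UMIs), Fcgbp (25) and Car1 (19) leading, and 5 of 25 at 0. At least 1 was present in 32.6%, 29.8% and 82.3% of barcodes. Car1 did not follow the list, at 10.3, 11.9 and 10.9 in the same sets, so its UMIs are not shown to be epithelial here. It stayed in the list by which barcodes were left out. Over mice the epithelial level in marker-positive barcodes lay between 17.5 (corn oil/cellulose mouse 2) and 161 (fish oil/pectin mouse 2), and it overlapped between diets. Neutrophil, platelet, lymphoid and endothelial markers had 0 UMIs, and fibroblast and adipocyte or mesothelial markers 1 each. Myeloid markers had 7 UMIs and smooth muscle markers 21. Without barcodes that held epithelial marker UMIs (201 and 485 left), the difference in Hbb-bt share was 4.14 points and that in mitochondrially encoded share −5.32.

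Between the diets no value of the marker-positive barcodes passed a test. Their share of haemoglobin-led barcodes was 27.03%, 20.9% and 39.3% in corn oil/cellulose mice 1, 2 and 4 and 19.7%, 31.2%, 30.4% and 34.4% in mice 1 to 4 on fish oil/pectin, so the groups overlapped. The means were 29.1% ± 9.39 (SD, n = 3) and 28.9% ± 6.39 (SD, n = 4), with a two-sided exact permutation p = 0.971. Within the inferred pools the difference, fish oil/pectin minus corn oil/cellulose, was −4.27 and −7.32 points. Here and below, each within-pool difference rests on 1 mouse of 1 diet. That is fish oil/pectin mouse 1 in pool 1 and corn oil/cellulose mouse 4 in pool 2. Diet and inferred pool are thus largely confounded. Among all barcodes of at least 100 UMIs the share was 7.02% ± 6.46 and 11.1% ± 6.14 (SD, n = 4 each, exact permutation p = 0.457), with 4.53 and −3.14 points in pools 1 and 2. When each barcode was thinned to 100 UMIs, with no haemoglobin-led barcode lost, 27.03%, 18.4% and 29.9% of haemoglobin-led barcodes in corn oil/cellulose mice 1, 2 and 4 and 21.3%, 31.2%, 19.6% and 28.1% in the fish oil/pectin mice had at least 1 marker UMI.

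Within marker-positive barcodes the Hbb-bt share was 24.7% ± 1.63 and 24.7% ± 2.33 (SD, n = 3 and 4, exact permutation p = 0.971; −2.81 and 2.42 points in pools 1 and 2). Mitochondrially encoded RNA took 7.63% ± 2.64 and 10.0% ± 4.51 (exact permutation p = 0.514, n = 3 and 4; 0.491 and 0.875 points). The median non-globin UMIs were 56.0 ± 10.3 and 55.25 ± 16.6 (exact permutation p = 0.971, n = 3 and 4; −18 and −4.17 UMIs). All 5 Benjamini-Hochberg adjusted values of these exact permutation tests were 0.971. The smallest p that an exact permutation test can give is 0.0571 for 3 mice against 4 and 0.0286 for 4 against 4. Only the share among all barcodes compared 4 with 4. Adjusted over the 5 tests, no value could therefore fall under 0.05, and the adjusted values say nothing of a diet difference.

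Gene by gene, 58 genes had enough UMIs in the sums per mouse, and edgeR's quasi-likelihood test called 0 of 58 (0%) at an adjusted p under 0.05. At an unadjusted p under 0.05 it gave 2, and DESeq2 called 0 and gave 0. Pabpc1 was lowest in p, with levels of 144, 123 and 74.4 in corn oil/cellulose mice 1, 2 and 4 and 48.9, 59.3, 36.4 and 52.8 in mice 1 to 4 on fish oil/pectin. All 4 fish oil/pectin mice were below all 3 others, at a log2 fold change of −0.98 (SE 0.37, edgeR adjusted p = 0.631). Pabpc1, Adipor1 and Ube2h were the 3 of 58 genes (5.17%) with such a separation after TMM scaling, and 0 genes were separated upward. Ube2o, the second at an unadjusted p under 0.05, was at 123, 193 and 133 against 73.3, 57.0, 102 and 119 (log2 fold change −0.80, SE 0.34, edgeR adjusted p = 0.631). These levels do not overlap either, but the values scaled by TMM factors do.

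Of other genes with small p, Gda had a log2 fold change of 1.04, mt-Nd1 of 0.89, Cat of 0.81 (SE 0.48), mt-Atp6 of 0.76, mt-Nd6 of 0.69, Dcaf12 of 0.61, mt-Co1 of 0.54 and mt-Co2 of 0.50. Below 0 were Cdr2 at −0.87, Ube2h at −0.71, Adipor1 at −0.51, Psme3 at −0.39, Ppp1cb at −0.34 and Fam220a (ENSMUSG00000083012) at −0.33. None passed. All 10 mitochondrially encoded genes tested were above 0, with a median of 0.52 beside 0.07 over the 58 genes, of which 32 were above 0. Within pools that direction was not uniform. In pool 2, mt-Nd1 (0.55), mt-Nd6 (0.41), mt-Atp6 (0.24) and mt-Co1 (0.14) differed upward. There mt-Atp8 (−0.996), mt-Cytb (−0.92), mt-Co3 (−0.86), mt-Nd3 (−0.43), mt-Co2 (−0.12) and mt-Nd2 (−0.08) were below 0. All of these but mt-Co2 had 0 UMIs in fish oil/pectin mouse 4, whose sum was 758 non-globin UMIs. Their negative values rest on that floor, and corn oil/cellulose had 1 mouse in that pool. In pool 1, mt-Cytb (−1.16), mt-Co1 (−1.02), mt-Nd6 (−0.32) and mt-Nd3 (−0.30) were below 0 and the other mitochondrially encoded genes above it. Floors matter there too. In that pool mt-Cytb had 0 UMIs in both mice numbered 1, and mt-Atp6 and mt-Co3 had 0 in corn oil/cellulose mouse 1. Sums per mouse held 409 to 5648 non-globin UMIs. The labels number the mice as biological replicates.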

How the data were processed

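The files hold deposited UMI counts, not normalized, of 19065 genes in each cell barcode, which the authors made with Cell Ranger 8.0.0, per the submitters' processing notes, which name the builds mm10 and GRCm39. The 8 libraries hold 34758 to 245476 UMIs and 106 to 5180 barcodes. Barcode filters beyond the cell call are not given in the sources used here. Genes were matched to GRCm38 loci by ID, and promoters are from RefSeq (GRCm38.p6).

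Levels are UMIs per 10000 non-globin UMIs, summed over the barcodes of a set. The mouse was the replicate. Single values per mouse were compared between diets with two-sided exact permutation tests (scipy 1.17.1) and Benjamini-Hochberg adjustment over 5 tests. Sums over the marker-positive barcodes of mice with at least 10 of them were compared with edgeR 4.0.16 in R 4.3.3, globin left out (filterByExpr with a minimum count of 5, TMM, robust quasi-likelihood test, adjusted p under 0.05), with DESeq2 1.42.0 as an alternative. The fit was tested on simulated counts. Mice of the same number were not treated as pairs in the main fit. Correlations of their deviations over 58 genes were 0.14, −0.17 and −0.20 for numbers 1, 2 and 4. With so few mice and low counts, these values cannot exclude a pairing.

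Named genes are the globins and rule markers, list genes with at least 10 UMIs, the 20 genes of highest ratio among those with at least 20 UMIs, and the 8 of smallest p per diet direction outside the rule. The genes given for the marker groups or as at least 2-fold lower were named after their values were seen. So were Rsad2, Cdc25b, Pttg1 and Ube2c. The barcodes, the 23 gene lists and the tests were chosen with earlier results of these data known. The p-values measure the spread between mice, and counting intervals were not used.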

Additional observations from a re-analysis of the deposited data

How the results depend on the processing

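The diet differences (fish oil/pectin minus corn oil/cellulose) of 3 single values lay near 0 and changed sign with the settings; the cause was not tested. With 3 mice against 4 or fewer, their exact permutation tests could not reach 0.05 under any setting (smallest p 0.0571 to 0.333), so their p-values say nothing of stability. For the share among haemoglobin-led barcodes, −0.16 points as reported, the difference was 2.31 at a minimum of 1 marker UMI and 0.446 at 3, 0.830 at a haemoglobin share of 0.7, and 1.43 and 2.06 at minimums of 50 and 200 UMIs. Leaving out each mouse gave −4.26 to 4.96. For the Hbb-bt share, −0.03 points, it was 0.826 at a minimum of 1 marker UMI and 2.56 at 3, 0.0149 at a haemoglobin share of 0.7, 0.0311 and 0.924 at 50 and 200 UMIs, and 0.830 without barcodes holding epithelial marker UMIs, with −1.01 to 0.603 leaving out each mouse. For the median non-globin UMIs, −0.75, it was 5 at a minimum of 3 marker UMIs, 4.13 and 5 at 50 and 200 UMIs, and −5.83 to 6.83 leaving out each mouse. The diet differences of the mitochondrially encoded share and of the share among all barcodes stayed above 0 in the alternatives run. Within inferred pool 2, which has 1 corn oil/cellulose mouse, the latter was −3.14 points.

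The genes called between diets numbered 0 in all 22 alternatives, with 0 to 20 at an unadjusted p under 0.05. In the fit with the replicate block (mouse number) 0 genes were called and 0 had an unadjusted p under 0.05. Alternatives added after the data had been seen restrict or leave out barcodes in the set comparison. The Hbb-bt difference between the sets was 2.01 points at 30 to 120 non-globin UMIs. The 13 of 96 genes at least 2-fold higher became 8 of 74 without barcodes holding epithelial marker UMIs, where fewer genes reached 20 UMIs. The 2 of 96 genes lower became 1 of 88 at 30 to 120 non-globin UMIs and 1 of 74 without those barcodes. Leaving out each mouse, 1 to 2 were lower. The log2 ratio of Blvrb ran from −0.14 to 1.34 leaving out each mouse. Depth limits the smallest sums: 3 mice gave 409 to 758 non-globin UMIs.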
